A study of Homo sapiens with 3 samples.

Results

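The RNAs described here are long noncoding RNAs: the nuclear RNAs MALAT1 and NEAT1, TUG1, and GAS5 with 6 members of the small nucleolar RNA host gene (SNHG) family, SNHG1, SNHG6, SNHG8, SNHG12, SNHG15 and SNHG16. They were chosen by name, with earlier results of these data known, and each of the 10 names was found once among the 35851 rows of the table. The related gene lists were chosen likewise. Shares of all genes set beside their counts are therefore a description and no test. Levels are in RPKM, the reads on a gene scaled to the length of its exons in kilobases and to the assigned reads of the library. All 10 averaged 1 RPKM or more, the level needed to enter the test. In all 13274 genes did so, 369 of them among the 2002 rows with a long noncoding type in GENCODE release 29.

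The samples were 5637 cells, an established human bladder cancer line, transfected with siRNA. The libraries siMYBL2-1 and siMYBL2-2 (1 each) came from cells given siRNA against MYBL2, a cell cycle transcription factor, and the library siNC (1) from cells given a control siRNA. The genotype label was WT for all 3, and all cells had been through transfection. It is not stated whether siMYBL2-1 and siMYBL2-2 mark different siRNA sequences or repeats, whether cultures were separate, or how long after transfection RNA was taken. The p-values thus rest on a spread between libraries that may be technical only.

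As background, most snoRNA host genes are read for the small nucleolar RNAs (snoRNAs) in their introns. After splicing the introns are trimmed to box C/D snoRNAs, which guide methylation of ribosomal RNA, or box H/ACA snoRNAs, which guide its conversion to pseudouridine, while the spliced host RNA often has no known protein product. GAS5 and several SNHG RNAs begin with a run of pyrimidines (a 5′ terminal oligopyrimidine or TOP motif), as ribosomal protein mRNAs do, and their spliced RNA can be broken down by nonsense-mediated decay when it is translated. MALAT1 resides in nuclear speckles, storage sites of splicing factors, and NEAT1 is the scaffold around which paraspeckle proteins assemble.

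The pyrimidine starts could be read from the GENCODE release 29 transcripts (GRCh38). Of all 206694 transcripts, 2.41% start with C followed by at least 4 pyrimidines, and of the 232 transcripts of the ribosomal protein genes listed 16.8% do so. In GAS5 these were 6 of 29 transcripts, in SNHG16 2 of 8, in SNHG12 4 of 17, in SNHG6 3 of 5, in SNHG8 1 of 5 and in SNHG1 1 of 25. None of the transcripts of MALAT1 (17), NEAT1 (8), TUG1 (20) and SNHG15 (10) do. The first bases of the transcripts with the longest such run are shown with the run in capitals, followed by the longest transcripts of MALAT1 and NEAT1 for contrast.
GAS5 (chr1:173867960-173867989, minus strand): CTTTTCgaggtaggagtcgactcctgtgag
SNHG16 (chr17:76557769-76557808, plus strand): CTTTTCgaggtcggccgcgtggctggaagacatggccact
SNHG12 (chr1:28581834-28581873, minus strand): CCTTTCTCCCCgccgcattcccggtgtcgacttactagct
SNHG8 (chr4:118278758-118278792, plus strand): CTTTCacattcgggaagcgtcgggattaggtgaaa
MALAT1 (chr11:65497762-65497801, plus strand): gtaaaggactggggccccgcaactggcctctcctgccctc
NEAT1 (chr11:65422798-65422837, plus strand): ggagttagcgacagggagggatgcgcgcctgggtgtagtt
GAS5 and SNHG16, which lie on different chromosomes, share their first 11 letters.

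The second set of sequences is that of snoRNAs from the introns of the host genes, the products for which the genes are known. Capitals mark letters of box C (GATGA, the first match within the first bases), of box D (CTGA, the last match) or of the ACA box, in transcripts of GENCODE release 29 on GRCh38.
SNORD25 in SNHG1 (chr11:62855564-62855632, minus strand): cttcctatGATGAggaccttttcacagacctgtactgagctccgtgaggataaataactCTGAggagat
SNORD26 in SNHG1 (chr11:62855292-62855366, minus strand): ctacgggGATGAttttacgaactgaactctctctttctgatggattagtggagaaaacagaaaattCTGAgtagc
SNORD1C in SNHG16 (chr17:76558791-76558868, plus strand): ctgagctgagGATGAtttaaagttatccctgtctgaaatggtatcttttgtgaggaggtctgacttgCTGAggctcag
SNORD99 in SNHG12 (chr1:28578749-28578822, minus strand): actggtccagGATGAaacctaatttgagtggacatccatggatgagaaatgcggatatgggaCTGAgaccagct
SNORA61 in SNHG12 (chr1:28579764-28579893, minus strand): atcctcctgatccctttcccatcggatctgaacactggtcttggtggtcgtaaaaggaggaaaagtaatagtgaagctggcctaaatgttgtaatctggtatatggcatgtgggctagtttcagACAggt

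The libraries held 40259436 to 46177658 assigned reads, so 3 reads on 1 kilobase correspond to 0.0650 to 0.0745 RPKM. MYBL2, the targeted gene, was at 46.0 RPKM in siMYBL2-1, 56.3 RPKM in siMYBL2-2 and 211 RPKM in siNC. The 9 epithelial markers listed were each at 6.11 RPKM or more in every library, and the 10 markers of leukocytes, endothelium, fibroblasts, smooth muscle and hepatocytes summed to 2.16 to 2.46 RPKM. Mitochondrially encoded genes took 7.24% and 6.04% of the reads in siMYBL2-1 and siMYBL2-2, against 7.25% in siNC.

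The label of abundant RNAs fits MALAT1 and SNHG6, and less the others. MALAT1 stood at the 95.9 and 94.5 percentiles of the 13274 genes tested in siMYBL2-1 and siMYBL2-2 and at 96.4 in siNC, and SNHG6 at 92.1 and 94.3, against 92.3 in siNC. The mean over the 3 libraries was under 10 RPKM for 7 of the 10 RNAs, and SNHG12, the lowest, lay at the 42.3 and 28.7 percentiles in siMYBL2-1 and siMYBL2-2 and at 20.3 in siNC. RPKM is per base of all annotated exons of a gene together. For the host RNAs this length exceeds the median GENCODE transcript, from 923 against 470 bases for SNHG8 to 3631 against 688 for GAS5. Their level per spliced molecule is therefore understated. This is not particular to the hosts: the row of NEAT1 has 22767 bases against a median of 3147. That of MALAT1 has 8755 against 480, though its longest transcript has 8708. Over the 10 RNAs, 63.6% to 98.8% of the exonic bases lie in no other row. Together they took 0.120% and 0.102% of the reads in siMYBL2-1 and siMYBL2-2, against 0.143% in siNC.

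**Figure D1:**
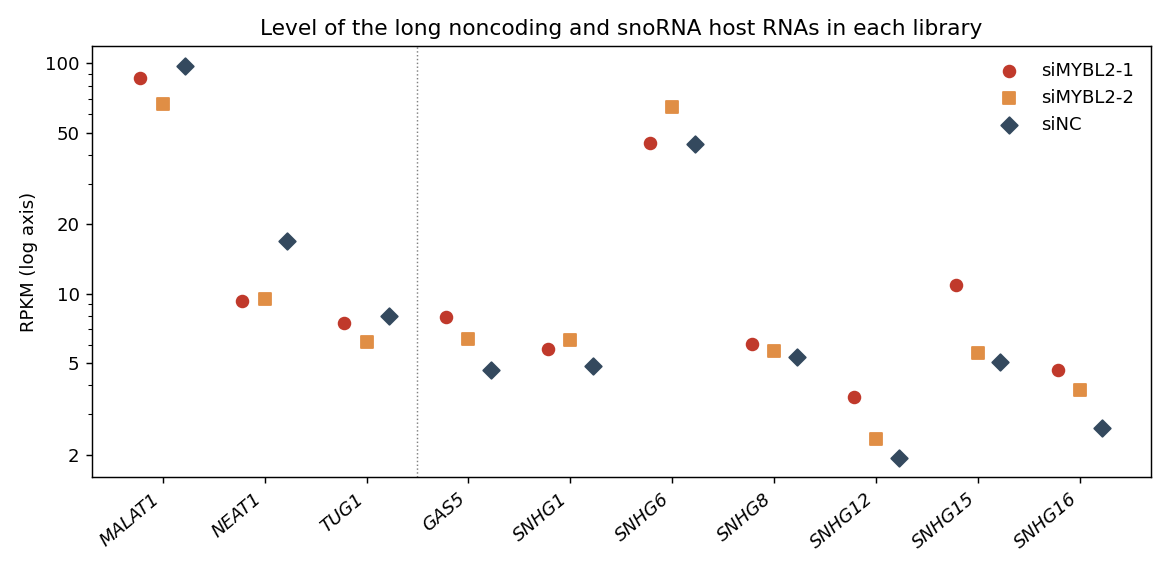
RPKM (log axis) of each of the 10 RNAs in siMYBL2-1 (circles), siMYBL2-2 (squares) and siNC (diamonds), 1 point per library, with MALAT1, NEAT1 and TUG1 left of the dotted line. Left of the line siNC is the highest library for each RNA, and right of it siNC is the lowest.

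Among these 10 RNAs the sign of the difference split by kind of RNA. MALAT1, NEAT1 and TUG1 were lower in both siMYBL2 libraries than in siNC, and GAS5 and the 6 SNHG RNAs were higher in both. No RNA thus had a siNC value between its siMYBL2 values. Some of these signs rest on differences within counting error: those of SNHG6 in siMYBL2-1, of SNHG15 in siMYBL2-2 and of SNHG8 in both libraries. Of all 13274 genes tested, 36.4% were lower in both and 29.7% higher in both, and of the 369 long noncoding rows 40.9% and 32.8%. A siNC value between the siMYBL2 values, or equal to one of them, was found in 33.9% of all genes. Only NEAT1 was beyond 1.5-fold in both libraries on the log2(RPKM + 1) scale, as were 2.02% of all genes and 2.44% of the long noncoding rows in the lower direction. None of the 10 was 1.5-fold higher in both, against 1.32% of all genes and 3.25% of the long noncoding rows. Both ratios share the siNC library. In bulk RNA, fewer cells with a transcript and less of it per cell cannot be told apart.

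None of the 10 RNAs passed the test across all genes. By limma on log2(RPKM + 1) the smallest adjusted p was 0.901, for NEAT1, and the other 9 were at 0.999 (Benjamini-Hochberg over 13274 genes, threshold 0.05). The same test called 0.00753% of the genes higher and 0.0% lower, and 4.71% had an unadjusted p under 0.05, among the RNAs described here NEAT1 alone. The fit of 2 libraries against 1 leaves 1 residual degree of freedom and takes the spread of siNC to equal that of siMYBL2. The values that follow are therefore descriptions of these libraries, and the intervals given with ratios are exact binomial intervals at 95% confidence on the reads, which cover counting error only.

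**Figure D2:**
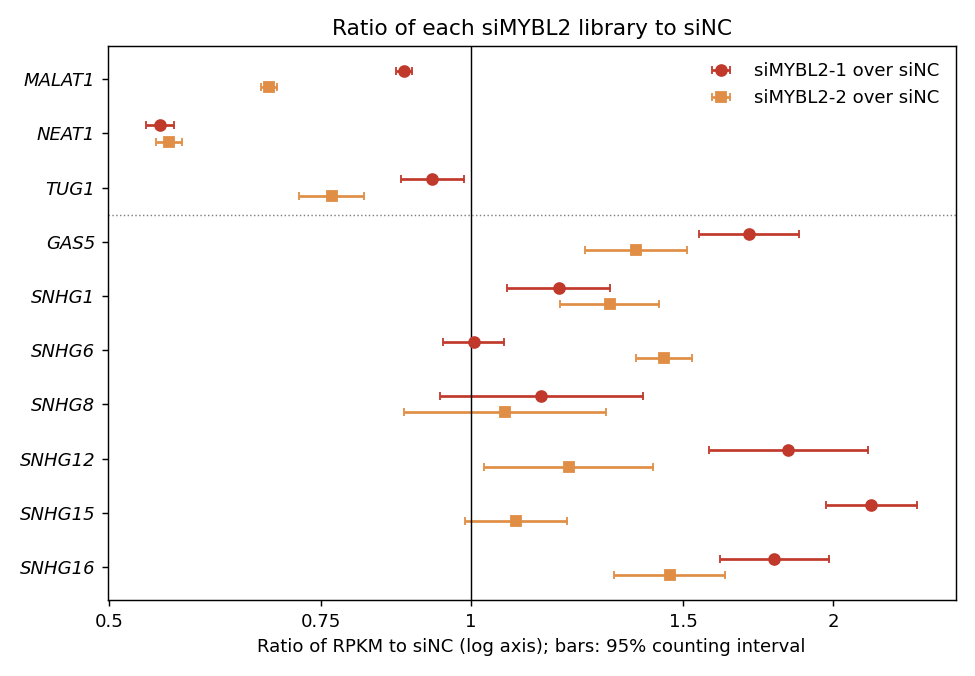
Ratio of RPKM to siNC (log axis) for siMYBL2-1 (circles) and siMYBL2-2 (squares), with 95% counting intervals as bars. The 3 RNAs above the dotted line lie below 1 in both libraries and the 7 beneath it above 1, and the intervals exclude 1 in both libraries for 7 of the 10, in 1 library only for SNHG6 and SNHG15, and in neither for SNHG8.

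NEAT1 (chromosome 11, 65422774 to 65445540, plus strand, hg38), the paraspeckle scaffold, had the largest mean log2 change of the 10. It was at 9.32 RPKM (8870 reads) in siMYBL2-1, at 9.47 RPKM (9961 reads) in siMYBL2-2 and at 16.9 RPKM (15479 reads) in siNC. The siMYBL2 libraries were nearly the same, with a mean of 9.40 ± 0.112 RPKM (SD, n = 2), and both were far below siNC. The ratio to siNC was 0.552 (95% counting interval 0.537 to 0.566) in siMYBL2-1 and 0.561 (0.547 to 0.575) in siMYBL2-2. The log2 change was -0.78 (SE 0.28, limma unadjusted p 0.0202, adjusted p 0.901), and 295 of the genes tested had a smaller p. A log2 change of at least this size in either direction was found in 3.54% of all genes tested and in 4.88% of the long noncoding rows.

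NEAT1 is made as a short RNA with a poly(A) tail and as a long RNA that shares its 5′ end, lacks a poly(A) tail and builds the paraspeckle. These libraries were made from poly(A) RNA, so the short form is captured better, and the row covers the whole 22767 bases of the long form. Short rows named after conserved stretches within the 5′ part allow a look at the shared region. NEAT1_3 (65423960 to 65424118) was at 71.9 and 72.3 RPKM in siMYBL2-1 and siMYBL2-2, against 148 RPKM in siNC, which is 0.485 (0.434 to 0.542) and 0.488 (0.438 to 0.543) times siNC. NEAT1_2 (65423638 to 65423742) was at 20.3 and 21.2 RPKM in siMYBL2-1 and siMYBL2-2, against 41.4 RPKM in siNC. NEAT1_1 (65423273 to 65423392) was at 50.8 and 77.6 RPKM in siMYBL2-1 and siMYBL2-2, against 102 RPKM in siNC, and in this row siMYBL2-2 lay nearer to siNC. All 3 short rows were thus lower in both siMYBL2 libraries, like the whole gene. Per base they were 2.18 to 7.72 times the whole row in siMYBL2-1, 2.24 to 8.19 times in siMYBL2-2 and 2.45 to 8.78 times in siNC. Because the read counter is not given in the sources used here, it is not known whether reads in these stretches also count for NEAT1.

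MALAT1 (chromosome 11, 65497762 to 65506516, plus strand), the nuclear speckle RNA and neighbour of NEAT1, was at 85.8 RPKM (31431 reads) in siMYBL2-1, at 66.3 RPKM (26822 reads) in siMYBL2-2 and at 97.7 RPKM (34423 reads) in siNC. Its ratio to siNC was 0.879 (0.866 to 0.893) in siMYBL2-1 and 0.679 (0.669 to 0.690) in siMYBL2-2. The siMYBL2 libraries thus differed from each other, by a ratio of siMYBL2-1 to siMYBL2-2 of 1.29 (1.27 to 1.32), by more than siMYBL2-1 differed from siNC. The log2 change was -0.37 (SE 0.30, limma adjusted p 0.999). A row on the opposite strand inside MALAT1, AP000769.1, was at 31.6 and 24.5 RPKM in siMYBL2-1 and siMYBL2-2, against 35.2 RPKM in siNC. Its reads were 6.68%, 6.71% and 6.54% of those of MALAT1 in siMYBL2-1, siMYBL2-2 and siNC. Without a stated strand setting, reads on shared bases may belong to either row, and 76.7% of the exonic bases of MALAT1 lie in no other row.

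The 3′ end of MALAT1 is not formed by a poly(A) tail: it is cut before a small tRNA-like RNA, mascRNA, and ends in an A-rich stretch written in the genome. That stretch is shown since it bears on how poly(A) selection sees MALAT1, with runs of at least 5 A in capitals. The longest run has 13, and mascRNA occupies 65506117 to 65506173.
MALAT1 (chr11:65506037-65506173, plus strand, GRCh38): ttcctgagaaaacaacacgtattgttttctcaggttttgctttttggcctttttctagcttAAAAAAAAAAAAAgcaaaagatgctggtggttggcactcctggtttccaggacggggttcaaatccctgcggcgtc
A row that joins mascRNA with the matching RNA just behind NEAT1 had 51 reads (10.6 RPKM) in siMYBL2-1 and 68 reads (12.8 RPKM) in siMYBL2-2, against 115 reads (24.8 RPKM) in siNC. Its ratio to siNC was 0.427 (0.301 to 0.599) and 0.516 (0.376 to 0.702). The row counts both stretches together, so its reads cannot be divided between the MALAT1 and NEAT1 loci.

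TUG1 (chromosome 22, 30970677 to 30979395, plus strand), a long noncoding RNA first described in the mouse retina, was at 7.45 RPKM (2117 reads) in siMYBL2-1, at 6.15 RPKM (1928 reads) in siMYBL2-2 and at 8.03 RPKM (2195 reads) in siNC. The ratio was 0.929 (0.874 to 0.986) in siMYBL2-1 and 0.766 (0.720 to 0.814) in siMYBL2-2, and limma gave a log2 change of -0.22 (SE 0.29, adjusted p 0.999). As for MALAT1, siMYBL2-2 was the lower library. RP3-430N8.10, a row on the opposite strand, was at 19.5 and 13.8 RPKM in siMYBL2-1 and siMYBL2-2, against 22.8 RPKM in siNC, and 78.5% of the exonic bases of TUG1 lie in no other row. The short row TUG1_3 was at 63.4 and 51.8 RPKM in siMYBL2-1 and siMYBL2-2, against 72.2 RPKM in siNC. Its reads came to 29.7% and 29.4% of those of the TUG1 row in siMYBL2-1 and siMYBL2-2, and to 31.4% in siNC. TUG1_2, on 62 and 64 reads in siMYBL2-1 and siMYBL2-2, against 46 reads in siNC, had ratios of 1.30 (0.872 to 1.94) and 1.21 (0.818 to 1.81), so no difference was detectable at this depth.

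GAS5 (chromosome 1, 173863900 to 173868882, minus strand) was named for its rise in growth-arrested mouse cells and holds box C/D snoRNAs. It was at 7.90 RPKM (1200 reads) in siMYBL2-1, at 6.37 RPKM (1068 reads) in siMYBL2-2 and at 4.64 RPKM (679 reads) in siNC. Both siMYBL2 libraries were above siNC, siMYBL2-1 more so, with ratios of 1.70 (1.55 to 1.87) and 1.37 (1.24 to 1.51). The mean of 7.14 ± 1.08 RPKM (SD, n = 2) was 1.54 times siNC, and limma gave a log2 change of 0.52 (SE 0.29, adjusted p 0.999). GAS5-AS1, an antisense row at the 3′ end, had 20 reads in siMYBL2-1 and 9 reads in siMYBL2-2, against 0 reads in siNC. ZBTB37, the gene read away from the GAS5 promoter, was at 0.297 and 0.367 RPKM in siMYBL2-1 and siMYBL2-2, against 0.362 RPKM in siNC.

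SNHG16 (chromosome 17, 76557766 to 76565348, plus strand), which holds SNORD1A, SNORD1B and SNORD1C and starts with the same letters as GAS5, had values like those of GAS5. It was at 4.64 RPKM (1041 reads) in siMYBL2-1, at 3.80 RPKM (941 reads) in siMYBL2-2 and at 2.60 RPKM (561 reads) in siNC. The ratios were 1.79 (1.61 to 1.98) and 1.46 (1.32 to 1.63), and the log2 change was 0.53 (SE 0.29, limma unadjusted p 0.0946, adjusted p 0.999). ST6GALNAC2, which ends 31 bases from SNHG16 on the other strand, was lower, at 0.309 and 0.475 RPKM in siMYBL2-1 and siMYBL2-2, against 0.890 RPKM in siNC.

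SNHG12 and SNHG15 were higher chiefly in siMYBL2-1. SNHG12 (chromosome 1, 28578538 to 28582983, minus strand), host of SNORD99 and box H/ACA snoRNAs, was at 3.56 RPKM (503 reads) in siMYBL2-1, at 2.34 RPKM (365 reads) in siMYBL2-2 and at 1.94 RPKM (264 reads) in siNC. Its ratios were 1.83 (1.58 to 2.14) and 1.21 (1.03 to 1.42). SNHG15 (chromosome 7, 44983023 to 44986961, minus strand), host of a SNORA9 copy, was at 10.9 RPKM (1664 reads) in siMYBL2-1, at 5.53 RPKM (931 reads) in siMYBL2-2 and at 5.07 RPKM (745 reads) in siNC. Its ratio in siMYBL2-1, 2.15 (1.97 to 2.35), was the highest of all 10 RNAs, while in siMYBL2-2 it was 1.09 (0.988 to 1.20), an interval that holds 1. The ratio of siMYBL2-1 to siMYBL2-2 was 1.97 (1.82 to 2.14) for SNHG15 and 1.52 (1.33 to 1.75) for SNHG12, so both differed more within the siMYBL2 libraries than between siMYBL2-2 and siNC. By limma the log2 change was 0.54 (SE 0.37) for SNHG15 and 0.41 (SE 0.31) for SNHG12, both with an adjusted p of 0.999.

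SNHG6 was the reverse, higher in siMYBL2-2 alone by more than counting error. SNHG6 (chromosome 8, 66921684 to 66926398, minus strand), the host of SNORD87, was at 44.9 RPKM (2340 reads) in siMYBL2-1, at 64.5 RPKM (3717 reads) in siMYBL2-2 and at 44.6 RPKM (2240 reads) in siNC. The ratio was 1.01 (0.949 to 1.07) in siMYBL2-1 and 1.45 (1.37 to 1.53) in siMYBL2-2, and limma gave a log2 change of 0.27 (SE 0.32, adjusted p 0.999). Of its exonic bases 63.6% lie in no other row, since the minus strand gene runs into MCMDC2 and its annotated exons also cover SNORD87. MCMDC2 was at 0.350 and 0.385 RPKM in siMYBL2-1 and siMYBL2-2, against 0.371 RPKM in siNC.

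SNHG8 had the smallest log2 change of the host RNAs, and SNHG1 one about as large as SNHG6. SNHG1 (chromosome 11, 62851988 to 62855914, minus strand), a host of many box C/D snoRNAs, was at 5.72 RPKM (899 reads) in siMYBL2-1, at 6.31 RPKM (1095 reads) in siMYBL2-2 and at 4.84 RPKM (732 reads) in siNC. The ratios were 1.18 (1.07 to 1.31) and 1.30 (1.19 to 1.43), and limma gave a log2 change of 0.26 (SE 0.29, adjusted p 0.999). SLC3A2, a subunit of amino acid transporters that starts 188 bases from SNHG1 on the other strand, was at 43.9 and 37.3 RPKM in siMYBL2-1 and siMYBL2-2, against 37.3 RPKM in siNC. SNHG8 (chromosome 4, 118278709 to 118279823, plus strand), host of a SNORA24 copy, was at 6.06 RPKM (234 reads) in siMYBL2-1, at 5.65 RPKM (241 reads) in siMYBL2-2 and at 5.30 RPKM (197 reads) in siNC. Its ratios, 1.14 (0.942 to 1.39) and 1.07 (0.880 to 1.29), did not differ from 1 beyond counting error. PRSS12, a serine protease gene that ends 215 bases behind SNHG8 on the other strand, was lower in both siMYBL2 libraries, at 2.16 and 3.21 RPKM in siMYBL2-1 and siMYBL2-2, against 5.25 RPKM in siNC.

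The siMYBL2 libraries also differed from each other. The counting interval of the ratio of siMYBL2-1 to siMYBL2-2 excluded 1 for 8 of the 10 RNAs, and held 1 for NEAT1 (0.983, 0.955 to 1.01) and SNHG8 (1.07, 0.892 to 1.29). The host RNAs together took 0.0188% and 0.0181% of the reads in siMYBL2-1 and siMYBL2-2, against 0.0135% in siNC. Their sums of reads hence lay closer together than their single members, among which SNHG15 and SNHG6 differed in opposite ways between siMYBL2-1 and siMYBL2-2. This does not hold for summed RPKM, which was 83.7 in siMYBL2-1 and 94.6 in siMYBL2-2, against 69.0 in siNC. MALAT1, NEAT1 and TUG1 together took 0.101% and 0.0838% of the reads, against 0.129% in siNC. In order of level, MALAT1 and SNHG6 led in every library and SNHG12 was last in every library, whereas GAS5, TUG1, SNHG1, SNHG8 and SNHG15 lay between 4.64 and 10.9 RPKM in an order that differed between libraries.

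**Figure D3:**
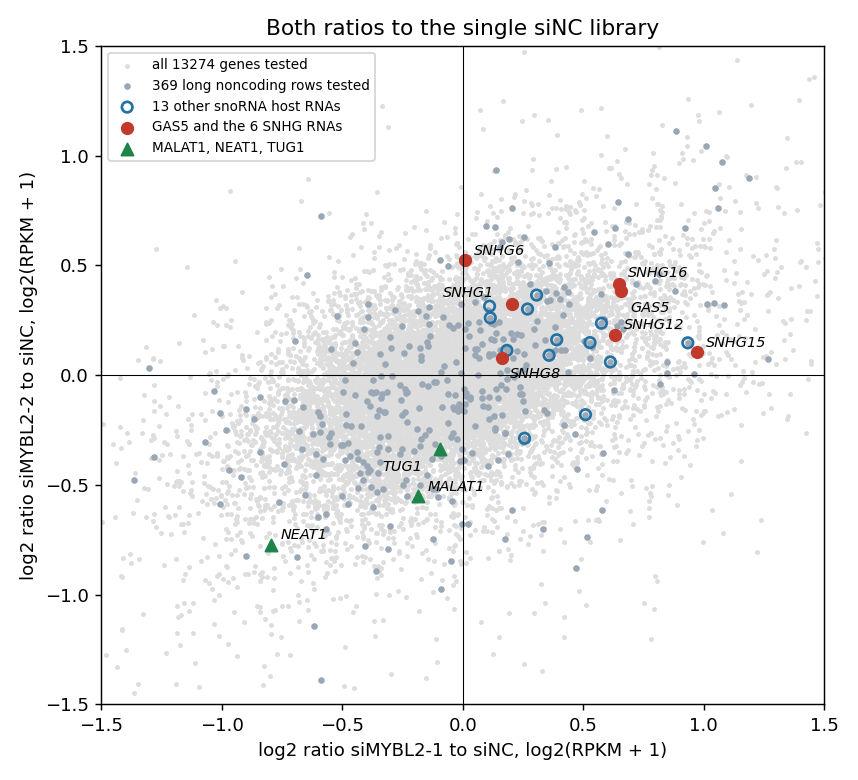
Log2 ratio to siNC of siMYBL2-1 (horizontal) and siMYBL2-2 (vertical) on the log2(RPKM + 1) scale, 1 point per gene, for all 13274 genes tested, long noncoding rows, 13 other snoRNA host RNAs (open circles), GAS5 and the 6 SNHG RNAs (filled circles) and MALAT1, NEAT1 and TUG1 (triangles); 164 genes lie outside the plotted range. The filled circles lie right of and above 0 and the triangles left of and below it, and both axes share siNC.

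The snoRNAs themselves are short and have no poly(A) tail, and few reads fell on their rows. Rows of 10 snoRNA names lay wholly inside a host gene, and 8 of them had at least 10 reads in a library (range over libraries 2 to 130 reads). Of these 8, 6 were higher in both siMYBL2 libraries, beside 29.7% of all genes tested, and SNORD22 and SNORA61 were higher in siMYBL2-1 only. Among the 6, SNORA16A, SNORD1C and SNORD87 reached 10 reads only in siMYBL2 libraries. For them the filter itself favoured higher values there, so the count is no support for a rise. SNORD26, in SNHG1, had 115 and 116 reads in siMYBL2-1 and siMYBL2-2, against 85 reads in siNC, with ratios of 1.30 (0.976 to 1.74) and 1.19 (0.892 to 1.59). SNORD25 had 92 and 81 reads in siMYBL2-1 and siMYBL2-2, against 63 reads in siNC. SNORD22, at 111 and 95 reads in siMYBL2-1 and siMYBL2-2, against 87 reads in siNC, had ratios of 1.23 (0.919 to 1.65) and 0.952 (0.704 to 1.29).

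In SNHG12, SNORA61 had 130 and 95 reads in siMYBL2-1 and siMYBL2-2, against 87 reads in siNC, and ratios of 1.44 (1.09 to 1.91) and 0.952 (0.704 to 1.29). SNORD99 had 19 and 16 reads in siMYBL2-1 and siMYBL2-2, against 10 reads in siNC, and SNORA16A 12 and 3 reads, against 2 reads in siNC. SNORD1C, in SNHG16, had 10 and 14 reads in siMYBL2-1 and siMYBL2-2, against 5 reads in siNC, and SNORD87, in SNHG6, 10 and 13 reads, against 6 reads in siNC. Only SNORD25 and SNORA61 in siMYBL2-1, and SNORA16A in siMYBL2-1 on its few reads, had a ratio whose interval excluded 1. Reads on these rows can come from unspliced or intron-retaining host RNA as well as from snoRNAs, which the table does not separate. Some snoRNA stretches, such as SNORA61, SNORD1C and SNORD87, also lie within bases annotated as exons of the host row. Their reads may therefore count for the host too, and host and snoRNA ratios need not be independent. The reads of SNORA61 came to 25.8%, 26.0% and 33.0% of those of SNHG12 in siMYBL2-1, siMYBL2-2 and siNC. Names with copies elsewhere in the genome (SNORD27, SNORD28, SNORD30, SNORA9, SNORA24 and SNORA44) are counted over all copies in 1 row and are not read as products of these hosts.

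**Figure D4:**
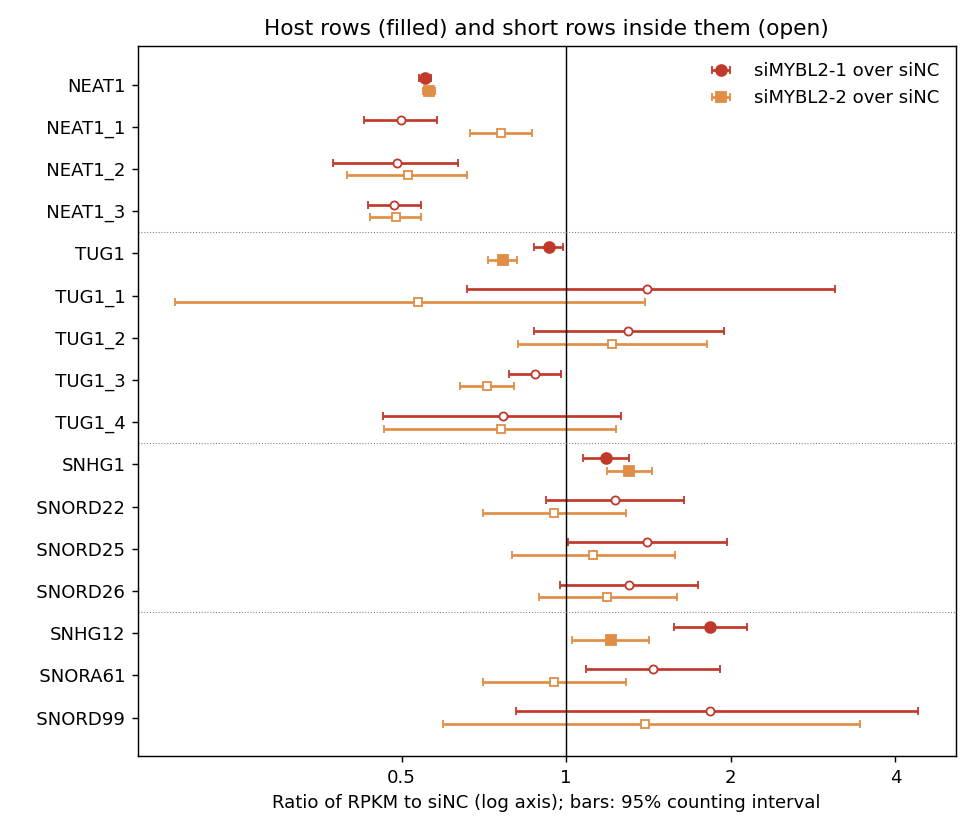
Ratio of RPKM to siNC (log axis) with 95% counting intervals for 4 host rows (filled) and short rows inside them (open), for siMYBL2-1 (circles) and siMYBL2-2 (squares); SNORA16A is left out for its 2 reads in siNC. The NEAT1 stretches lie to the left of 1 like NEAT1 itself, whereas most snoRNA intervals hold 1. Reads on the short rows may also count for the host rows.

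Most other snoRNA host RNAs that averaged 1 RPKM or more were higher too. Of 25 further host RNAs listed, 21 were matched and 13 averaged 1 RPKM or more. Of these 13, 11 were higher in both siMYBL2 libraries, 0 lower in both and 2 (SNHG22 and DANCR) in opposite directions, beside 29.7% higher and 36.4% lower in both of all genes. Their median log2 ratios were 0.36 and 0.15 in siMYBL2-1 and siMYBL2-2, beside -0.04 and -0.01 over all genes tested. SNHG10, at 0.996 RPKM in siNC, averaged 1 RPKM only through the siMYBL2 libraries. Among the matched hosts under the filter, SNHG4 and SNHG25 were higher in both. SNHG9, SNHG14 and SNHG28 were lower in both, and SNHG11, SNHG18 and SNHG20 went in opposite directions. The mean of both medians was 0.25, and 0.18 when genes under 1 RPKM were kept. SNHG17 was at 5.71 and 2.89 RPKM in siMYBL2-1 and siMYBL2-2, against 2.51 RPKM in siNC, a large difference in siMYBL2-1 alone, as for SNHG15. SNHG7 was at 2.51 and 1.77 RPKM in siMYBL2-1 and siMYBL2-2, against 1.35 RPKM in siNC. ZFAS1, the most abundant of them and a host of SNORD12 copies, was at 18.6 and 19.0 RPKM, against 15.2 RPKM in siNC, and is named after its values were seen, as are SNHG22 and DANCR. By limma the smallest adjusted p of the 13 was 0.999.

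The protein-coding hosts of intronic snoRNAs had a like count, 16 of 20 higher in both siMYBL2 libraries and 2 lower in both. Of all genes tested, 29.7% were higher in both and 36.4% lower in both. The list medians were 0.29 and 0.23. WDR43, a ribosomal RNA processing factor, was at 77.2 and 74.2 RPKM in siMYBL2-1 and siMYBL2-2, against 43.1 RPKM in siNC, and limma gave a log2 change of 0.80 (SE 0.29, adjusted p 0.886). NCL, which encodes nucleolin, was at 1452 and 1139 RPKM in siMYBL2-1 and siMYBL2-2, against 864 RPKM in siNC. The 2 that were lower in both were NFATC3, a transcription factor gene (1.41 and 1.36 RPKM, against 1.59 RPKM in siNC), and DDX39B, an RNA helicase gene (18.4 and 17.3 RPKM, against 19.2 RPKM in siNC). None of the 20 passed limma.

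Proteins that build snoRNAs into particles were more often higher than lower. Of 6 genes of box H/ACA particles, 5 were higher in both siMYBL2 libraries and 0 lower in both, with medians of 0.40 and 0.20. The shares over all genes tested were 29.7% higher in both and 36.4% lower in both. DKC1, the pseudouridine synthase dyskerin, which also stands in the list of protein-coding hosts, was at 241 and 191 RPKM in siMYBL2-1 and siMYBL2-2, against 145 RPKM in siNC, and GAR1 at 16.6 and 16.2 RPKM, against 11.8 RPKM in siNC. Of 11 genes of box C/D particles, 7 were higher in both and 2 lower in both, with medians of 0.28 and 0.33. Among them NOP56 also stands in the list of protein-coding hosts, so these counts are not independent. The assembly factors NUFIP1 (14.0 and 12.2 RPKM in siMYBL2-1 and siMYBL2-2, against 8.13 RPKM in siNC) and ZNHIT6 (40.9 and 37.0 RPKM, against 25.0 RPKM in siNC) differed most. The assembly factor PIH1D1 was at 18.6 and 17.0 RPKM in siMYBL2-1 and siMYBL2-2, against 22.4 RPKM in siNC. The methyltransferase gene FBL was at 73.0 and 71.3 RPKM, against 83.4 RPKM in siNC. None of these 17 genes passed limma, with a smallest unadjusted p of 0.0551.

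The protein-coding TOP genes went both ways. Of 40 ribosomal protein genes, 17 were higher in both siMYBL2 libraries and 13 lower in both, with medians of 0.01 and 0.05. These counts are 42.5% and 32.5%, beside 29.7% and 36.4% of all genes tested. The largest differences in each direction were those of RPL18 (13.2 and 10.8 RPKM in siMYBL2-1 and siMYBL2-2, against 9.48 RPKM in siNC), RPL23 (93.8 and 112 RPKM, against 83.4 RPKM in siNC) among the higher ones, and of RPL27 (553 and 537 RPKM, against 729 RPKM in siNC) and RPS18 (52.7 and 62.5 RPKM, against 75.7 RPKM in siNC) among the lower ones. Of 19 other TOP genes, 8 were higher in both (42.1%) and 4 lower in both (21.1%), with medians of 0.03 and 0.01. VIM (vimentin) was at 1.20 and 2.09 RPKM in siMYBL2-1 and siMYBL2-2, against 0.453 RPKM in siNC, and averaged 1 RPKM only through the siMYBL2 libraries. TPT1 encodes the translationally controlled tumour protein and NACA a subunit of the nascent polypeptide-associated complex. TPT1 was at 131 and 143 RPKM in siMYBL2-1 and siMYBL2-2, against 168 RPKM in siNC, and NACA at 70.0 and 77.6 RPKM, against 80.5 RPKM in siNC. None of the 59 genes of either list passed limma.

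Genes of nonsense-mediated decay, which acts on several spliced host RNAs, had median log2 ratios of 0.00 in siMYBL2-1 and 0.15 in siMYBL2-2. In siMYBL2-2 this was about the median of the other snoRNA host RNAs. Single genes differed by more, such as UPF3A with a log2 change of -0.43. Of 17 genes, 7 were higher in both siMYBL2 libraries (41.2%), 2 lower in both (11.8%) and 8 in opposite directions. Of all genes tested, 29.7% were higher in both and 36.4% lower in both. UPF3A and UPF3B encode adaptors to the exon junction complex. UPF3A was at 78.7 and 76.1 RPKM in siMYBL2-1 and siMYBL2-2, against 105 RPKM in siNC, and UPF3B at 216 and 254 RPKM, against 260 RPKM in siNC. PNRC2 was at 49.6 and 52.2 RPKM in siMYBL2-1 and siMYBL2-2, against 40.5 RPKM in siNC, and RNPS1, a protein of exon junctions, at 19.1 and 15.8 RPKM, against 13.4 RPKM in siNC. None passed limma (smallest unadjusted p 0.164).

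**Figure D5:**
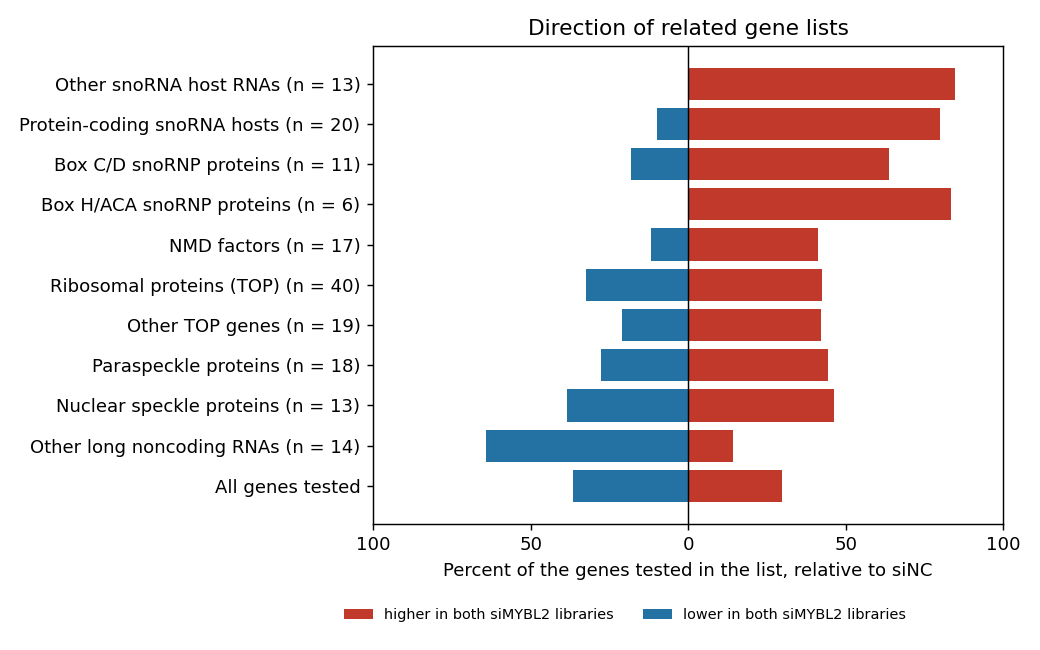
Percent of the genes tested in each list that were higher (right) or lower (left) in both siMYBL2 libraries than in siNC, with all 13274 genes tested in the bottom row. Among the other snoRNA host RNAs tested 84.6% were higher in both, beside 29.7% of all genes. Among the other long noncoding RNAs 64.3% were lower in both, beside 36.4% of all genes and 40.9% of the long noncoding rows (not drawn). The lists were chosen with earlier results of these data known.

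The protein partners of the nuclear RNAs went both ways. Of 18 paraspeckle proteins, 8 were higher in both siMYBL2 libraries (44.4%) and 5 lower in both (27.8%), with medians of 0.02 and 0.09. The shares over all genes tested were 29.7% higher in both and 36.4% lower in both. TAF15 and EWSR1 are RNA-binding proteins of the FET family. TAF15 was at 201 and 226 RPKM in siMYBL2-1 and siMYBL2-2, against 318 RPKM in siNC, and EWSR1 at 73.1 and 81.2 RPKM, against 83.1 RPKM in siNC. HNRNPH3 was at 224 and 209 RPKM in siMYBL2-1 and siMYBL2-2, against 165 RPKM in siNC, and FAM98A at 7.69 and 6.01 RPKM, against 5.52 RPKM in siNC. Of 13 speckle proteins, 6 were higher in both (46.2%) and 5 lower in both (38.5%), with medians of -0.05 and 0.11. Among the higher ones RNPS1 and the splicing factor U2AF1 had the largest differences (U2AF1 at 40.9 and 41.5 RPKM in siMYBL2-1 and siMYBL2-2, against 32.3 RPKM in siNC). Among the lower ones PRPF6 (113 and 136 RPKM, against 142 RPKM in siNC) and SRSF2 (17.3 and 16.7 RPKM, against 18.2 RPKM in siNC) did, by less. None passed limma.

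Other long noncoding RNAs were more often lower than higher. Of 30 listed, 14 averaged 1 RPKM or more. Of these, 9 were lower in both siMYBL2 libraries and 2 higher in both, beside 40.9% and 32.8% of the 369 long noncoding rows tested. The list medians were -0.29 and -0.11. The mean of both medians was -0.20, and -0.07 when genes under 1 RPKM were kept. MIR205HG, the host of a microRNA of basal epithelia, was at 13.1 and 13.9 RPKM in siMYBL2-1 and siMYBL2-2, against 25.4 RPKM in siNC, and limma gave a log2 change of -0.86 (SE 0.29, adjusted p 0.773). LINC00511 was at 2.75 and 4.02 RPKM in siMYBL2-1 and siMYBL2-2, against 6.54 RPKM in siNC. CYTOR (LINC00152 in the table) was at 1.37 and 1.02 RPKM, against 0.618 RPKM in siNC, and averaged 1 RPKM only through the siMYBL2 libraries. RN7SK had 44 and 62 reads in siMYBL2-1 and siMYBL2-2, against 42 reads in siNC. NORAD, named after its values were seen as an RNA about as abundant as MALAT1, was at 81.5 and 90.8 RPKM in siMYBL2-1 and siMYBL2-2, against 95.8 RPKM in siNC. None of the 14 passed limma.

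The genes most like NEAT1 in both ratios were EHBP1L1 (17.3 and 17.5 RPKM in siMYBL2-1 and siMYBL2-2, against 31.2 RPKM in siNC) and S100A2 (186 and 196 RPKM, against 329 RPKM in siNC). For MALAT1 they were SAMD1 and CEBPB, and for GAS5 they were CDR2 and the row AC022201.5. Likeness was the distance in both log2 ratios over the 6345 other genes that averaged 5 RPKM or more. With 3 libraries many genes come close: 8 genes lay within 0.1 of NEAT1, 30 of MALAT1 and 50 of GAS5.

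Promoter windows of RefSeq (GRCh38.p14, 250 bases before to 50 after the start) were given for 7 of the 10 RNAs. On both strands the letters TTTGAA of the cell cycle homology region (CHR), the element bound by the MuvB complex with which MYBL2 acts, were found in the windows of GAS5 and SNHG16 and in 15.2% of all 35116 windows. The E-box CACGTG was found in that of TUG1 and in 7.26% of all windows, and the MYB letters AACNG in those of 5 of the 7 and in 77.2% of all windows. Matches of different motifs were counted separately and may overlap. The 3 stretches are shown with the match in capitals, and a match is a description of letters only.
GAS5 (chr1:173869060-173869125, minus strand): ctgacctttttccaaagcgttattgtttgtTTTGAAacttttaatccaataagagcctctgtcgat
SNHG16 (chr17:76557646-76557711, plus strand): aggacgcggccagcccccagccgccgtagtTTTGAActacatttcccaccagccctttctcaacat
TUG1 (chr22:30969158-30969223, plus strand): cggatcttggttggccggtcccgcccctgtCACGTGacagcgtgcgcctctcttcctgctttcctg
The RefSeq start of TUG1 lies upstream of the deposited row, and that of GAS5 upstream of the deposited row and of the pyrimidine start shown above, which its window does not reach. GAS5 and SNHG16, whose windows hold the CHR letters, were higher in both siMYBL2 libraries. Of the RNAs whose windows do not hold them, SNHG1, SNHG8 and SNHG12 were higher in both and MALAT1 and TUG1 lower in both. A link between these letters and the direction was not tested.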

How the data were processed

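Poly(A) RNA of 5637 cells was sequenced in 2 siMYBL2 libraries and 1 siNC library, and the authors deposited 1 table of RPKM values, per the file headers. According to the submitters' processing notes cutadapt 1.9, HISAT2 2.0.4, StringTie 1.3.4d and hg38 were used, in roles not named there. How reads were counted, on which strand and with which annotation is not given in the sources used here. Per the labels' protocols, the second cDNA strand carried dUTP and was removed. Reads were recovered as RPKM times length over the step worth 1 read, and 100% of values came out whole (tolerance 0.001 reads).

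limma-trend (limma 3.58.1, R 4.3.3) was run on log2(RPKM + 1) for the 13274 genes averaging 1 RPKM or more, adjusted by Benjamini-Hochberg, and tested on simulated data. Recovery there was required only for changes far larger than those of the RNAs described here. How often changes of their size would be called is not given. Moderation gave 10.2 total degrees of freedom. Changes on this scale understate those of low genes. Ratios of single genes are plain ratios of RPKM. Biotypes and transcripts came from GENCODE release 29, and list names were matched through RefSeq synonyms. Up to 2 genes per direction and list were named, those with the largest mean log2 ratio among genes alike in both siMYBL2 libraries. A gene that this rule names is not reported here. The RNAs and lists were chosen with earlier results of these data known. Alternatives varied the pseudocount, filter, scaling, moderation, model and libraries.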

Additional observations from a re-analysis of the deposited data

How the results depend on the processing

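Each of the 10 RNAs kept its direction, and stayed short of the threshold, in all 98 values that refits under 10 other settings gave for them. The settings were pseudocounts of 0.1 and 0.5, no filter or one at 5 RPKM, 3 other scalings and robust moderation. The others were limma-voom on the recovered reads and a test of long noncoding rows alone, the last added after the data had been seen. The filters, robust moderation and the test of long noncoding rows alone leave the log2 changes of the RNAs as they are. A pseudocount cannot reverse a direction on which both siMYBL2 libraries agree. Under these settings the direction was thus fixed in advance, and only the p-values could move. The filter at 5 RPKM removed SNHG12 and SNHG16 and left 5 higher and 3 lower. The lowest adjusted p of any of the 10 was 0.216, for NEAT1 without the filter, and among the long noncoding rows it was 0.291; its log2 change lay between -0.85 and -0.78 over these settings. Without siMYBL2-1 or without siMYBL2-2 the counts were 7 higher and 3 lower in the remaining library. They had to be, since each RNA went the same way in both. With 1 library against 1 there is no test. Over all genes limma called 1 higher and 0 lower. The number higher was 0 without the filter, with the filter at 5 RPKM, under all 3 other scalings, with robust moderation and among the long noncoding rows, and 3 with limma-voom. The number lower was 7 with limma-voom and 2 among the long noncoding rows. The cause was not tested. No paired analysis was possible because siNC carries no replicate number. With 234, 241 and 197 reads in siMYBL2-1, siMYBL2-2 and siNC, depth limits SNHG8, and the snoRNA rows more so.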
